A study of Mus musculus with 13 samples.

Results

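The 8 subunits of the cytosolic chaperonin CCT, also called TRiC, were followed in RNA sequencing libraries of gluteal white adipose tissue (WAT), a subcutaneous depot, from mice kept at 22°C or 29°C. The members are the rows of the count table that carry the symbols *Tcp1*, *Cct2*, *Cct3*, *Cct4*, *Cct5*, *Cct6a*, *Cct7* and *Cct8*, which makes 8 of 34419 genes, and each is 1 row. All 8 passed the filter on low counts. The libraries came from male C57BL/6J mice that were bred and kept at 22°C (7 mice) or at 29°C (6 mice) until 13 weeks of age, with 1 library for each mouse. Mice of both groups lost their posterior hair after weaning and were kept alone, with little bedding and no nest material. The comparison asks how the gluteal depot differs between cool housing and housing at thermoneutrality. The libraries hold RNA of whole tissue, so a lower level can come from fewer cells that express a gene or from less of its RNA in each cell, and these cannot be told apart.

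CCT is a chaperonin of the cytosol built as a double ring, in which each ring holds each of the subunits once. Newly made proteins enter its chamber and fold there in cycles driven by ATP, with actin and the tubulins as its best known clients and several proteins with WD40 repeats, such as the beta subunits of G proteins, among the others. *Tcp1* encodes the alpha subunit, *Cct2* the beta, *Cct3* the gamma, *Cct4* the delta, *Cct5* the epsilon, *Cct6a* the zeta, *Cct7* the eta and *Cct8* the theta subunit.

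Mean levels of all 8 subunits were lower at 22°C than at 29°C, by amounts between 2.0% for *Cct4* and 15.0% for *Cct3*, and none of the differences passed the test. Over the 8 genes the median log2 fold change of 22°C relative to 29°C was -0.09, beside 0.0074 over the 17779 genes tested. P-adj is the p-value adjusted by Benjamini-Hochberg over all genes tested. None of the 8 had P-adj below 0.1 in edgeR's quasi-likelihood test, whereas 1.94% of all genes tested did, and 1.21% did with a lower level at 22°C. Of the 8 subunits, *Cct3* and *Cct8* had an unadjusted p below 0.05, and 8.2% of all genes had one with a lower level at 22°C. The direction itself is common, since 48.4% of all genes had a log2 fold change below 0, and the 8 subunits rose and fell together from mouse to mouse, so that 8 genes in 1 direction are not 8 separate observations. DESeq2, the tool that the methods of the study name, called *Cct3* and *Cct8* and none of the other 6, while it called 4.65% of the genes it tested as lower at 22°C.

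Facts on all libraries frame these values. The total count was between 22356637 and 22857079 in 22°C replicates 1 to 5, and between 24821549 and 25245785 in 22°C replicates 6 and 7 and all 6 libraries at 29°C, so a comparison at like totals has 2 mice at 22°C. Markers of adipocytes, 8 genes, summed to between 14084 and 21856 CPM (counts per library total, scaled by TMM so that most genes match between libraries) at 22°C and to between 17929 and 21081 CPM at 29°C, so the defining genes of the labelled tissue were present in all libraries. Of these, *Lep*, which encodes leptin, was called at -0.78 on the log2 scale (P-adj = 0.0564, edgeR) without overlap of the groups. Markers of skeletal muscle, 20 genes, summed to between 1012 and 99588 CPM at 22°C and between 186 and 8084 CPM at 29°C, with 75572 CPM in 22°C replicate 1 and 99588 CPM in 22°C replicate 7. All 20 had a higher fitted level at 22°C, as had 9167 of all 17779 genes tested. None of the 20 passed the test in edgeR, although 13 had an unadjusted p below 0.05. DESeq2 called 12 of them, while it called 914 of the 16388 genes it tested as higher at 22°C. Muscle RNA was highest in 22°C replicates 1 and 7, so these genes are not 20 separate observations. Hemoglobin and red cell genes, 5 genes, summed to 3370 CPM in 29°C replicate 2 and to between 286 and 756 CPM in the other libraries. The ranges of summed markers of macrophages, lymphocytes, endothelium, epithelium, Schwann cells and proliferating cells overlapped between the groups, with epithelium at up to 244 CPM at 29°C and 47.7 CPM at 22°C. Among the genes of these lists edgeR called *Cd3e*, a component of the T cell receptor complex, at 1.79 on the log2 scale (P-adj = 0.0817, edgeR), from at most 48 counts in a library, and DESeq2 gave it no adjusted p. The sums of brown fat markers did not overlap between the groups, with 33.1 to 146 CPM at 22°C and 7.68 to 22.7 CPM at 29°C. Singly, the groups did not overlap for *Cidea* and *Cox8b*, and they did for *Otop1* and *Elovl3*. *Ucp1*, which defines brown fat, was too low to be tested. Of the 4 that were tested, *Cidea* (P-adj = 0.0199), *Cox8b* (P-adj = 0.0827) and *Otop1* (P-adj = 0.0596) were called higher at 22°C in edgeR. The remaining one, *Elovl3*, was -0.03 on the log2 scale (SE 0.922; P-adj = 0.992, edgeR). Of all 17779 genes tested, 130 were called higher at 22°C. The highest sums of brown fat markers, 146 and 115 CPM, were in 22°C replicates 1 and 7, which also had the most muscle RNA. The part of these other cell types in the levels of the subunits was not tested beyond the comparisons given here.

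The DNA just upstream of the subunit genes is shown for *Cct3* and *Cct8*, whose levels differed most, and for *Cct2* and *Cct7*, whose levels differed less. The sequences are from RefSeq on GRCm38.p6, are written from 5′ to 3′ along the strand of the gene, and were limited to bases within 250 of the RefSeq start where GENCODE M21 annotates no exon. Capitals mark GGGCGG, the core of a GC box, and CCAAT, each searched on both strands, so that they also appear as CCGCCC and ATTGG.
Cct3, chr3:88297000-88297115, plus strand: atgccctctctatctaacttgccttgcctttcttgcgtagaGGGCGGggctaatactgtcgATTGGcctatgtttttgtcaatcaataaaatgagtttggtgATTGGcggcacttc
Cct8, chr16:87495874-87495998, minus strand: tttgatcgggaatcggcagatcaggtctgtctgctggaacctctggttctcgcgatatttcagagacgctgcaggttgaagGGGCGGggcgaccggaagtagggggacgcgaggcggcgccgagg
Cct2, chr10:117063853-117064102, minus strand: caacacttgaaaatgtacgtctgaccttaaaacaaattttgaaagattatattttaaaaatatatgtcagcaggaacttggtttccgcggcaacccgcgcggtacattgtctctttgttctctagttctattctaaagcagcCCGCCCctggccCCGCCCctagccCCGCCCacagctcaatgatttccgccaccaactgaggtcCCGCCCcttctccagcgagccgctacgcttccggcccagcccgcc
Cct7, chr6:85451284-85451504, plus strand: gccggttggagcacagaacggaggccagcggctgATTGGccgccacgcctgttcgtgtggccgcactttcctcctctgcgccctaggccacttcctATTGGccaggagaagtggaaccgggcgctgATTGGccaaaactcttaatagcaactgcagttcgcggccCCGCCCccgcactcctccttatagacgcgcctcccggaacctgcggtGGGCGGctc

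The 2 kinds of capitals do not overlap in these sequences. The promoter table held 9 windows of 250 upstream bases for 7 of the 8 subunits, and *Cct4* is not among them. GGGCGG was present upstream of all 7, in 8 of the 9 windows, and in 32.7% of all 32851 windows. CCAAT was present upstream of *Tcp1*, *Cct3*, *Cct6a* and *Cct7*, and in 33.8% of all windows. CCGGAAG, a core bound by ETS factors, was found for *Cct2* and *Cct8*, beside 6.91% of all windows. The GAANNTTC form of the heat shock element core was found for *Cct2*, beside 6.69% of all windows, and the TTCNNGAA form for *Cct5*, beside 7.17%. For *Cct2* it lies in the window of another start, chr10:117063376-117063625, and not in the sequence shown. The E-box CACGTG was in none of the 9 windows and in 6.02% of all windows. The same held for the TATA box letters TATAAA, which 12.4% of all windows hold. It also held for the CRE letters TGACGTCA, which 1.55% hold. *Cct3* and *Cct8*, which had the largest differences in RNA, thus share GGGCGG with the other 5 subunits examined, and of the remaining motifs *Cct3* has CCAAT and *Cct8* has CCGGAAG.

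Most of these windows also reach into a gene on the opposite strand. Of the 9 windows, 6 (66.7%) hold an exon of an opposite-strand gene in GENCODE M21, beside 15.9% of all windows. These belong to 6 of the 7 subunits. These neighbors are *Mrpl18* for *Tcp1*, *Tsacc* for *Cct3*, *Fam173b* for *Cct5*, *Psph* for *Cct6a*, *Pradc1* for *Cct7* and *B130034C11Rik* for *Cct8*. Where reads are counted without strand, those in exons shared with an opposite-strand gene could be given to the wrong gene or left uncounted. The strand setting and the handling of such reads are not given in the sources used here. *Mrpl18* shares 141 and *Acat3* 571 exon bases with *Tcp1*, *Psph* shares 452 with *Cct6a*, *Pradc1* shares 214 with *Cct7* and *Usp16* shares 192 with *Cct8*. Of the overlapping genes, *Acat3* had at most 1289 counts in a library, whereas *Tcp1* had at least 3518. For *Cct8*, with at least 1485 counts, *Usp16* had at most 991, and its log2 fold change was 0.13 (P-adj = 0.525, edgeR). These counts do not give the number of reads in the shared exons. Pseudogene copies of the subunits that are in the table had at most 4 counts in a library.

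With all 13 libraries, *Cct3*, *Cct8* and *Cct6a* had the largest differences between the temperatures. *Cct3* (ENSMUSG00000001416.14) encodes the gamma subunit. Its level ranged from 53.7 through a median of 58.5 to 71.0 CPM at 22°C, and from 65.0 through a median of 69.6 to 81.3 CPM at 29°C. Of the 7 mice at 22°C, 5 were below the lowest mouse at 29°C, and the groups overlapped through 22°C replicates 1 and 6. The means were 60.7 ± 5.94 CPM (SD, n = 7) and 71.5 ± 5.73 CPM (SD, n = 6). The log2 fold change was -0.24 (SE 0.0722, 95% interval -0.39 to -0.08; P-adj = 0.141, edgeR), a difference of -15.0% that did not pass. With DESeq2 the log2 fold change of *Cct3* was -0.24 (SE 0.0797; P-adj = 0.0519, DESeq2).

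*Cct8* (ENSMUSG00000025613.14) encodes the theta subunit. It ranged from 67.3 through a median of 76.6 to 86.6 CPM at 22°C, and from 83.0 through a median of 87.7 to 97.2 CPM at 29°C. All 7 mice at 22°C were below the median at 29°C, and 5 of them were below the lowest mouse at 29°C. The means were 76.1 ± 7.70 CPM (SD, n = 7) and 88.1 ± 5.34 CPM (SD, n = 6). The log2 fold change was -0.21 (SE 0.0703, 95% interval -0.36 to -0.06; P-adj = 0.166, edgeR), which is -13.6%. With DESeq2 it was -0.21 (SE 0.0770; P-adj = 0.074, DESeq2).

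*Cct6a* (ENSMUSG00000029447.14), which encodes the zeta subunit found in most tissues, ranged from 111 through 125 to 139 CPM at 22°C, and at 29°C from 130 through 135 to 164 CPM, the middle values being medians. Of the mice at 22°C, 4 were below the lowest mouse at 29°C. On the log2 scale it differed by -0.15 (SE 0.0740, 95% interval -0.31 to 0.01; P-adj = 0.308, edgeR). *Cct6b*, a paralog of the zeta subunit known from testis, had at most 28 counts in a library, so *Cct6a* supplied nearly all counts of the pair.

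**Figure D1:**
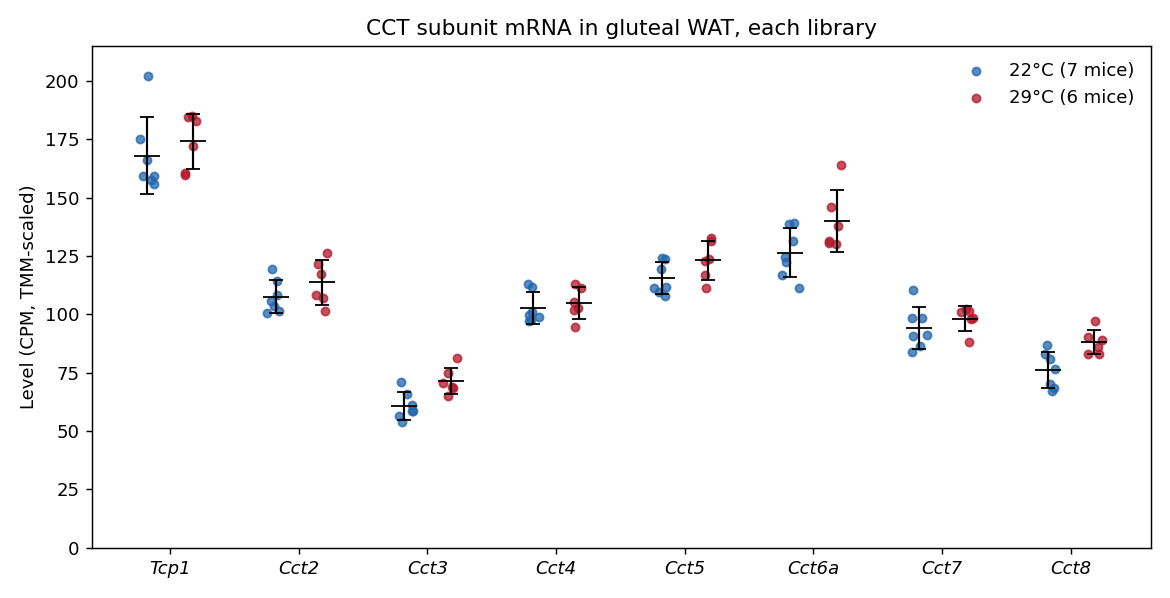
Level of each CCT subunit in every library, in TMM-scaled CPM on the vertical axis, with 22°C in blue (7 mice) and 29°C in red (6 mice); lines show the mean and bars the SD. The groups overlap for all 8 subunits, least for *Cct3* and *Cct8*, where 5 of 7 mice at 22°C lie below the lowest mouse at 29°C.

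The remaining 5 subunits differed by less. *Tcp1* (ENSMUSG00000068039.14), the alpha subunit, ranged from 156 through a median of 159 to 202 CPM at 22°C, and at 29°C from 160 through a median of 178 to 185 CPM. The highest and the lowest of all 13 values belonged to mice at 22°C. On the log2 scale it differed by -0.05 (SE 0.0725, 95% interval -0.21 to 0.10; P-adj = 0.742, edgeR).

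*Cct7* (ENSMUSG00000030007.9), the eta subunit, ranged from 83.9 through a median of 91.3 to 110 CPM at 22°C, and at 29°C from 88.0 through a median of 99.6 to 102 CPM. As with *Tcp1*, the extremes were both mice at 22°C. The log2 fold change was -0.06 (SE 0.0665, 95% interval -0.20 to 0.08; P-adj = 0.677, edgeR). *Cct5* (ENSMUSG00000022234.16), the epsilon subunit, ranged from 108 through a median of 112 to 124 CPM at 22°C, and at 29°C from 111 through a median of 123 to 133 CPM. Of the mice at 22°C, 5 were below the median at 29°C. The log2 fold change was -0.09 (SE 0.0587, 95% interval -0.22 to 0.03; P-adj = 0.423, edgeR).

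*Cct2* (ENSMUSG00000034024.9), the beta subunit, ranged from 100.5 through a median of 106 to 119 CPM at 22°C, and at 29°C from 102 through a median of 113 to 126 CPM, so the groups overlapped over most of their range. The log2 fold change was -0.08 (SE 0.0648, 95% interval -0.22 to 0.06; P-adj = 0.552, edgeR). *Cct4* (ENSMUSG00000007739.11), the delta subunit, ranged from 97.1 through a median of 99.6 to 113 CPM at 22°C, and at 29°C from 94.4 through a median of 104 to 113 CPM. The lowest *Cct4* value was from a mouse at 29°C. The log2 fold change was -0.03 (SE 0.0592, 95% interval -0.16 to 0.10; P-adj = 0.829, edgeR). For these 5 subunits and *Cct6a* the interval includes 0, and its lower end lies between -10.3% for *Cct4* and -19.2% for *Cct6a*, so smaller declines were not distinguishable from no difference with these mice.

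The order of the differences depended in part on which libraries were compared. When the total cluster of each library was a covariate, *Cct3* had a difference of -0.20 on the log2 scale (SE 0.110; P-adj = 0.464, edgeR). In the same fit *Cct8* had -0.10 (SE 0.0987; P-adj = 0.71, edgeR) and *Cct6a* -0.05 (SE 0.106; P-adj = 0.885, edgeR), while *Cct2*, at -0.12 (SE 0.0977; P-adj = 0.66, edgeR), came second to *Cct3*. Among the 8 libraries with higher totals, *Cct8* was 80.8 and 83.1 CPM in the mice at 22°C, and *Cct3* was 65.8 and 58.5 CPM. The log2 fold changes there were -0.21 for *Cct3*, -0.13 for *Cct2*, -0.11 for *Cct8* and -0.06 for *Cct6a*, which was below those of *Tcp1*, *Cct4* and *Cct5* in size, and the lowest P-adj of any subunit was 0.403 (edgeR). The difference of *Cct3* was thus of like size within these libraries, and those of *Cct8* and *Cct6a* were smaller. Of the mice at 22°C there, replicate 7 had the most muscle RNA of all libraries, with muscle markers at 99588 CPM. Library total and muscle RNA were thus not separated in this comparison. Temperature and library total cannot be told apart in the other libraries, which are all from 22°C.

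The mice with the most muscle RNA, 22°C replicates 1 and 7, had the highest sums of the 8 subunits at 22°C in TMM-scaled CPM, with 965 and 873 CPM. Their TMM factors, 0.850 and 0.879, were the lowest of all libraries, and as a percent of the total count their sums, 0.0819 and 0.0766, were the lowest of the 13, so the order turned with the scaling. Without 22°C replicates 1 and 7, *Cct8* had a difference of -0.28 on the log2 scale (SE 0.0625; P-adj = 0.0822, edgeR) and passed, and *Cct3* had -0.28 (SE 0.0679; P-adj = 0.105, edgeR). *Tcp1* went to -0.13 and *Cct7* to -0.13 in that comparison, each more than in all 13 libraries, and neither passed. With the muscle score of each library, the mean log2 CPM of the muscle markers, as a covariate, *Cct3* was -0.28 (P-adj = 0.227, edgeR) and *Cct8* -0.26 (P-adj = 0.241, edgeR). The part of muscle RNA in the levels of the subunits was not tested beyond these comparisons.

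The log2 sums of the 10 marker lists were set against the mean of the 8 subunits over 13 libraries. For red cell markers Pearson r was -0.543 (permutation p = 0.0419, adjusted 0.419) and Spearman rho -0.626 (permutation p = 0.0249, adjusted 0.249), in two-sided tests with 100000 permutations and adjustment over the 10 lists. Libraries with more red cell RNA thus tended to have lower levels of the subunits, without passing after adjustment. After centering within temperature, with all 13 libraries, r was -0.766. Without 22°C replicate 1 and 29°C replicate 2, which lie farthest from the median of these markers, r before centering was -0.583. For muscle markers r was 0.0314 (permutation p = 0.919, adjusted 0.999) and rho 0.0604 (permutation p = 0.849, adjusted 0.849). Within temperature, with all 13 libraries, the r of muscle markers was 0.351. Without 22°C replicates 1 and 7 it was -0.237 before centering. For the other 8 lists no adjusted p was below 0.849. Of these lists, brown fat markers had the largest r in size within temperature, 0.663, against -0.133 before centering. Without 22°C replicate 1 and 29°C replicate 2 the r of brown fat markers before centering was -0.599. The values within temperature were not tested.

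**Figure D2:**
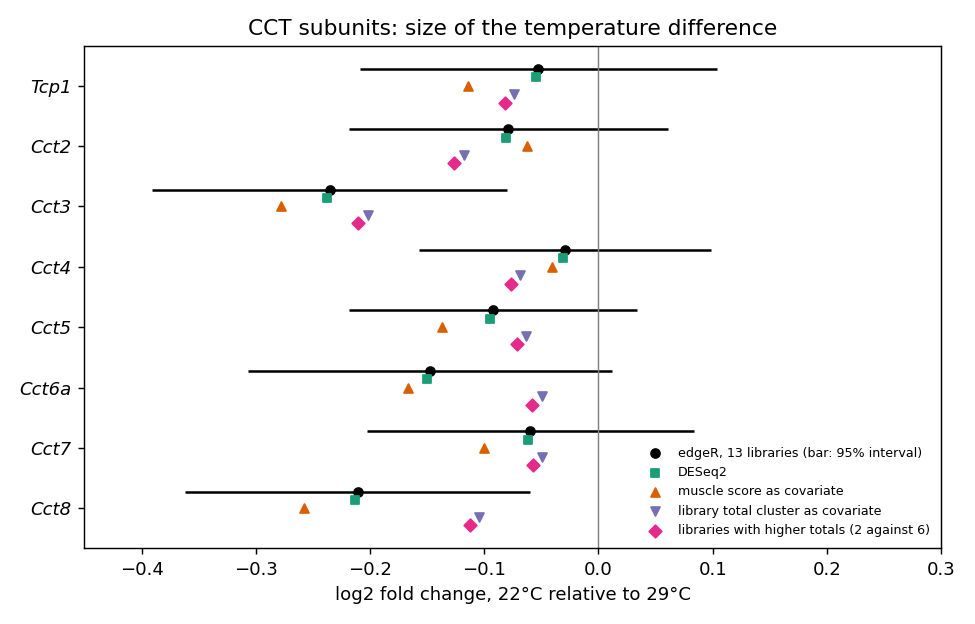
Log2 fold change of each CCT subunit, 22°C relative to 29°C, on the horizontal axis; black points with bars are the edgeR estimates and 95% intervals from 13 libraries, and the other symbols are estimates from DESeq2, from fits with a covariate, and from the libraries with higher totals. All symbols lie below 0, and *Cct8* and *Cct6a* move toward 0 when library totals are considered. The mice at 22°C with higher totals are replicates 6 and 7, and replicate 7 had the most muscle RNA.

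All 8 RNAs were abundant. Their mean CPM stood between the percentiles 83.4 and 94.9 of the genes tested. Per kilobase of transcript, mean CPM over 13 libraries was 69.8 ± 5.83 (SD) for *Tcp1*, which was the highest of the 8. It was followed by *Cct5* at 64.2 ± 4.43, *Cct2* at 56.4 ± 4.35 and *Cct6a* at 54.1 ± 5.45 CPM per kilobase. Lower levels were those of *Cct4* at 41.7 ± 2.65, *Cct7* at 39.3 ± 3.04, *Cct8* at 34.1 ± 3.74 and *Cct3* at 33.2 ± 4.0 CPM per kilobase. The 2 subunits with the largest differences between temperatures were therefore also those with the lowest levels on this scale. Neighbors in the order kept it within each library in 13 of 13 libraries for *Tcp1* over *Cct5*, *Cct5* over *Cct2*, *Cct6a* over *Cct4* and *Cct7* over *Cct8*. *Cct4* was above *Cct7* in 12 of 13 libraries, and *Cct2* over *Cct6a* and *Cct8* over *Cct3* held in 9 of 13. Across libraries the ranges of every pair of neighbors overlapped. These levels depend on the transcript model, and for *Cct6a* the length of a non-coding model of 2454 bases was used.

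Levels varied little among mice of a group. The coefficient of variation of the subunits was between 5.32% and 10.1%. For all 8 it was below the median of the genes tested, which was 17.5% at 22°C and 14.5% at 29°C. Most genes tested were less abundant than the subunits, and genes of like abundance were not compared. The sum of the 8 ranged from 793 through a median of 847 to 965 CPM at 22°C, and from 833 through a median of 916 to 993 CPM at 29°C. The mean sum was 851 ± 57.5 CPM (SD, n = 7) in the cooler group, against 913 ± 59.4 CPM (SD, n = 6) at 29°C, a difference of -6.83% that was close to 1 SD. As a percent of the total count, without TMM, the sum was 0.0833 ± 0.00375 at 22°C and 0.0932 ± 0.00565 at 29°C, a difference of -10.6%. The scaling thus changed the size but not the direction.

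In single mice most or all subunits stood high or low together. At 22°C, replicate 1 had the highest level of 7 of the 8 subunits in its group, with a sum of 965 CPM, although its 8 subunits took 0.0819% of its total count, which is within the range of its group. At 29°C, replicate 2 had the lowest level of all 8 subunits in its group, with a sum of 833 CPM, and it was also the library with the most red cell RNA. Without 29°C replicate 2 the median log2 fold change of the 8 was -0.11, and without 22°C replicate 1 it was also -0.11. Without 22°C replicate 1 *Tcp1* and *Cct7* went to -0.10 each on the log2 scale. *Cct2* went to -0.05 without 29°C replicate 6 and *Cct6a* to -0.10 without 29°C replicate 1. *Cct4* went to -0.06 without 29°C replicate 2 and to -0.0065 without 29°C replicate 3. Leaving out 1 mouse thus moved these smaller differences by over 1.5 times. All 8 log2 fold changes were below 0 in each of the 13 fits that left out a mouse, and no subunit had P-adj below 0.1 in any of them, the lowest being 0.111 (edgeR) for *Cct3* without 22°C replicate 6.

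The shares of the sum varied less between libraries than the levels did. Per kilobase, *Tcp1* took 18.1% ± 0.890 (SD, n = 7) of the sum at 22°C and 17.5% ± 0.427 (SD, n = 6) at 29°C. *Cct3* took 8.09% ± 0.562 at 22°C and 8.86% ± 0.271 at 29°C. *Cct8* took 8.37% ± 0.532 at 22°C and 9.03% ± 0.241 at 29°C. The shares of *Cct3* and *Cct8* were thus slightly smaller at 22°C and that of *Tcp1* slightly larger, and the ranges of the groups overlapped for all 8 subunits. The shares varied over the 13 libraries with a coefficient of variation between 3.50% for *Cct5* and 6.99% for *Cct3*, whereas the CPM varied between 6.35% for *Cct4* and 12.0% for *Cct3*.

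**Figure D3:**
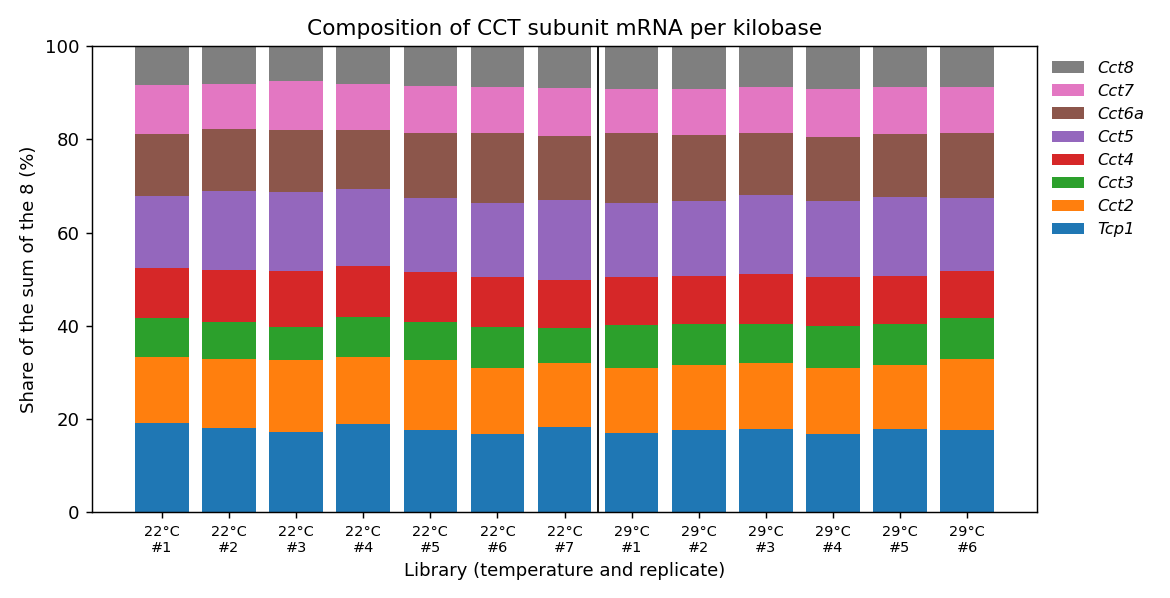
Share of each subunit in the sum of the 8, in percent of CPM per kilobase on the vertical axis, for each library along the horizontal axis, with 22°C to the left of the line and 29°C to the right. The bands keep nearly the same height in all libraries, with *Tcp1* between 16.8% and 19.2% at 22°C and *Cct3* between 7.18% and 8.76%.

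The subunits rose and fell together across mice. Over 13 libraries, Pearson r of log2 CPM between pairs of subunits ranged from 0.393 to 0.897 with a median of 0.678, and Spearman rho ranged from 0.516 to 0.879. *Cct3* and *Cct8* had r = 0.897, *Cct6a* and *Cct8* 0.890, and *Cct3* and *Cct6a* 0.837. *Cct2* and *Cct4* had r = 0.848, while *Cct4* and *Cct8* had the lowest value of 0.393. After each gene was centered within its temperature, r ranged from 0.389 to 0.858, with 0.798 for *Cct3* and *Cct8*. Without 22°C replicate 1 and 29°C replicate 1, the libraries farthest from the median, r ranged from 0.177 to 0.860. These values describe libraries that share normalization and depth, and the likeness rests in part on those libraries for the pairs of *Cct4* with *Cct3* and *Cct8*, which fell to 0.177 and 0.179.

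**Figure D4:**
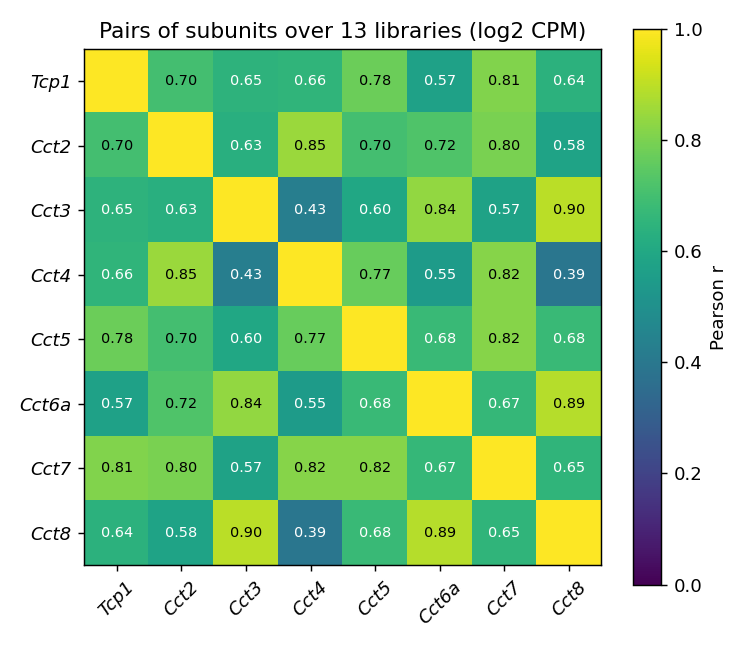
Pearson r of log2 CPM for each pair of CCT subunits over 13 libraries, with color from 0 to 1. *Cct3*, *Cct6a* and *Cct8* form a block between 0.837 and 0.897, and *Cct4* has its lowest values with *Cct3* and *Cct8*.

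The genes most like the mean of the 8 subunits were sought among the other 17771 genes tested. These were *Yme1l1* with r = 0.904, *Tfb1m* with 0.895, *Ube2n* with 0.892, *Trappc13* with 0.888 and *Dars* with 0.887, over 13 libraries. *Yme1l1* encodes a protease of the mitochondrial inner membrane, *Tfb1m* a methyltransferase of the mitochondrial ribosome, *Ube2n* a ubiquitin-conjugating enzyme, *Trappc13* a subunit of a vesicle tethering complex and *Dars* the cytosolic aspartyl-tRNA synthetase. Only 1 gene had r above 0.9 and 52 had r above 0.8, while the median over all genes was -0.0197. After centering within temperature, the most similar were *Uqcrb* with 0.905, *Rps27l* with 0.90, the unnamed gene ENSMUSG00000118537.2 with 0.894, *Prelid3b* with 0.893 and *Immp1l* with 0.892. *Uqcrb*, a subunit of respiratory complex III, had r of 0.516 before centering, and its log2 fold change was 0.28 (P-adj = 0.436, edgeR), so it varied with the subunits within groups while its mean lay the other way. Without 22°C replicate 1 and 29°C replicate 1, r of *Uqcrb* was 0.142 before centering and 0.756 after it, and that of *Yme1l1* was 0.878 and 0.769. Among the listed chaperones, r was highest for *Hspa4* at 0.879, *Stip1* at 0.832 and *Fkbp4* at 0.826, and it was 0.783 for *Hspd1* of the mitochondrial chaperonin.

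Cofactors that bring clients to CCT were measured next. Prefoldin, which carries unfolded actin and tubulin to the chamber, had 4 of 6 genes higher and 2 lower at 22°C, with none called and a median log2 fold change of 0.07. Its most abundant genes were *Pfdn5* at -0.06 (SE 0.0525; P-adj = 0.545, edgeR), *Pfdn1* at 0.25 (SE 0.145; P-adj = 0.388, edgeR) and *Pfdn2* at 0.03 (SE 0.108; P-adj = 0.927, edgeR). Of the phosducin-like cofactors, which bind CCT and modulate folding, 3 of 4 were tested and none was called. *Txndc9* was -0.16 (SE 0.0678; P-adj = 0.229, edgeR), *Pdcl3* 0.15 (SE 0.0766; P-adj = 0.324, edgeR) and *Pdcl* -0.09 (SE 0.0713; P-adj = 0.532, edgeR). The 5 tubulin cofactors, which act on tubulin after CCT, had 4 higher and 1 lower and none called, with *Tbcd* at 0.0067, *Tbcb* at -0.02 and *Tbca* at 0.03. Cofactors thus lay on both sides of 0. DESeq2 called none of these genes either, and 1 prefoldin gene, *Pfdn6*, and 1 phosducin-like gene, *Txndc9*, had an unadjusted p below 0.05 in edgeR.

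Of the relatives of the subunits, the 3 chaperonin-like genes of the Bardet-Biedl group had log2 fold changes of -0.02 for *Mkks*, -0.23 for *Bbs10* and -0.05 for *Bbs12*, with none called by edgeR or DESeq2 and none with an unadjusted p below 0.05. *Cct6b* was 0.16 (SE 0.273; P-adj = 0.798, edgeR), and *Cct8l1* never exceeded 6 counts and was too low to be tested.

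Among clients, the cytoskeletal genes were mostly lower at 22°C. *Actb*, which encodes beta actin, was 1647 ± 327 CPM (SD, n = 7) in the cooler group, against 1866 ± 245 CPM (SD, n = 6) at 29°C, with a difference of -0.18 on the log2 scale (SE 0.144; P-adj = 0.541, edgeR). *Actg1*, which encodes gamma actin, was -0.19 (SE 0.157; P-adj = 0.553, edgeR). Of 12 tubulin genes, 10 were lower and 2 higher, with a median of -0.25 on the log2 scale, while 48.4% of all genes were lower. In edgeR 1 of the 12 was called, beside 1.21% of all genes called lower at 22°C. Among the 8 libraries with higher totals, 6 tubulin genes were lower and 6 higher, with a median of -0.0052, and *Actg1* was 0.01 on the log2 scale. The tally thus did not hold in these libraries, where the mice at 22°C include replicate 7 with the most muscle RNA.

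That gene, *Tuba1a*, which encodes an alpha tubulin, ranged from 264 to 529 CPM at 22°C, and at 29°C from 506 to 1076 CPM, so the groups overlapped only slightly. On the log2 scale it differed by -0.86 (SE 0.199; P-adj = 0.0798, edgeR; 0.00207 with DESeq2). In edgeR it passed in 2 of the 13 fits that left out a mouse, those without 22°C replicate 2 and without 22°C replicate 6. P-adj over these 13 edgeR fits was between 0.0622 and 0.163. With the muscle score as a covariate the difference of *Tuba1a* was -0.69 (P-adj = 0.246, edgeR), and with the cluster of totals -0.86 (SE 0.321; P-adj = 0.315, edgeR). Among the libraries with higher totals it was -0.87, so the size stayed while the error grew. *Tuba1b* was -0.35 (SE 0.114; P-adj = 0.163, edgeR; 0.0554 with DESeq2) and *Tubb5* -0.21 (SE 0.141; P-adj = 0.442, edgeR). *Tuba1a* and *Tuba1b* encode nearly identical proteins, and how reads were split between these 2 genes was not examined. *Tuba4a*, at 1.59 (SE 0.628; P-adj = 0.209, edgeR), lay the other way.

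Clients with WD40 repeats had 5 of 8 tested genes higher and 3 lower, with none called. *Gnb1*, a beta subunit of G proteins, was -0.10 (SE 0.0733; P-adj = 0.479, edgeR), *Gnb2* was 0.05 (SE 0.0791; P-adj = 0.773, edgeR), and *Gnb5* was 0.02 (SE 0.159; P-adj = 0.97, edgeR). The 4 other clients, *Stat3*, *Hdac3*, *Vhl* and *Ccne1*, had 3 higher and 1 lower, with none called. The most abundant of them, *Stat3*, was 0.08 (SE 0.0615; P-adj = 0.544, edgeR), *Hdac3* was 0.03 (SE 0.0502; P-adj = 0.766, edgeR) and *Vhl* was -0.02 (SE 0.132; P-adj = 0.947, edgeR). DESeq2 called none of the WD40, actin and other clients, and none of them had an unadjusted p below 0.05 in edgeR.

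Other chaperones of the cytosol were mostly lower at 22°C, as the subunits were. Of 20 heat shock chaperone genes, 16 were lower and 4 higher, with a median log2 fold change of -0.17, while 48.4% of all genes were lower. How far these genes varied together was not examined, so they may not be 20 separate observations. Of the 20, edgeR called 1 and DESeq2 7, all lower at 22°C, beside 1.21% and 4.65% of all genes that each tested. The called gene, *Hspa4l*, which encodes a nucleotide exchange factor of the Hsp110 family, ranged from 15.6 to 20.7 CPM at 22°C, and at 29°C from 24.4 to 32.3 CPM. Its groups did not overlap, which held for *Hspa4l* and *Chordc1* of the 20 genes and for 0.748% of all genes tested with a lower level at 22°C. On the log2 scale *Hspa4l* differed by -0.63 (SE 0.0887; P-adj = 0.0101, edgeR), and each of the 13 fits without 1 mouse called it. With the muscle score as a covariate *Hspa4l* was -0.67 (P-adj = 0.032, edgeR), and with the cluster of totals -0.64 (SE 0.140; P-adj = 0.201, edgeR). Among the libraries with higher totals it was -0.65, and 16 of the 20 chaperones were lower there too.

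The most abundant chaperones did not pass. *Hspa8*, the constitutive Hsp70, was -0.42 (SE 0.120; P-adj = 0.119, edgeR; 0.0156 with DESeq2). *Hsp90ab1*, the constitutive Hsp90, was -0.22 (SE 0.0784; P-adj = 0.184, edgeR; 0.0391 with DESeq2), close to the values of *Cct3* and *Cct8*. *St13*, a cochaperone of Hsp70, was -0.15 (SE 0.0872; P-adj = 0.381, edgeR).

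Of the heat shock factors, *Hsf1*, the main activator of the heat shock response, was -0.12 (SE 0.0840; P-adj = 0.478, edgeR) and *Hsf2* was 0.48 (SE 0.141; P-adj = 0.127, edgeR; 0.0323 with DESeq2). The chaperonin of mitochondria was lower in both of its genes, *Hspd1* at -0.22 (SE 0.0972; P-adj = 0.249, edgeR) and *Hspe1* at -0.13 (SE 0.114; P-adj = 0.567, edgeR), and neither was called.

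The core of the 20S proteasome, another large protein complex, lay the other way. All 14 of its genes had higher fitted levels at 22°C, as had 9167 of all 17779 genes tested. None of the 14 was called in edgeR, and their median was 0.13 on the log2 scale. Among the libraries with higher totals, 13 were higher and 1 lower, with a median of 0.117. Within temperature each of the 14 had r between 0.66 and 0.843 with the mean of the CCT subunits. The 14 genes in 1 direction are therefore not 14 separate observations. Its most abundant genes were *Psmb1* at 0.04 (SE 0.0759; P-adj = 0.807, edgeR), *Psmb4* at 0.14 (SE 0.0650; P-adj = 0.289, edgeR) and *Psma1* at 0.06 (SE 0.0983; P-adj = 0.794, edgeR). *Psma7* passed with DESeq2 (P-adj = 0.037) and not with edgeR (P-adj = 0.116).

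**Figure D5:**
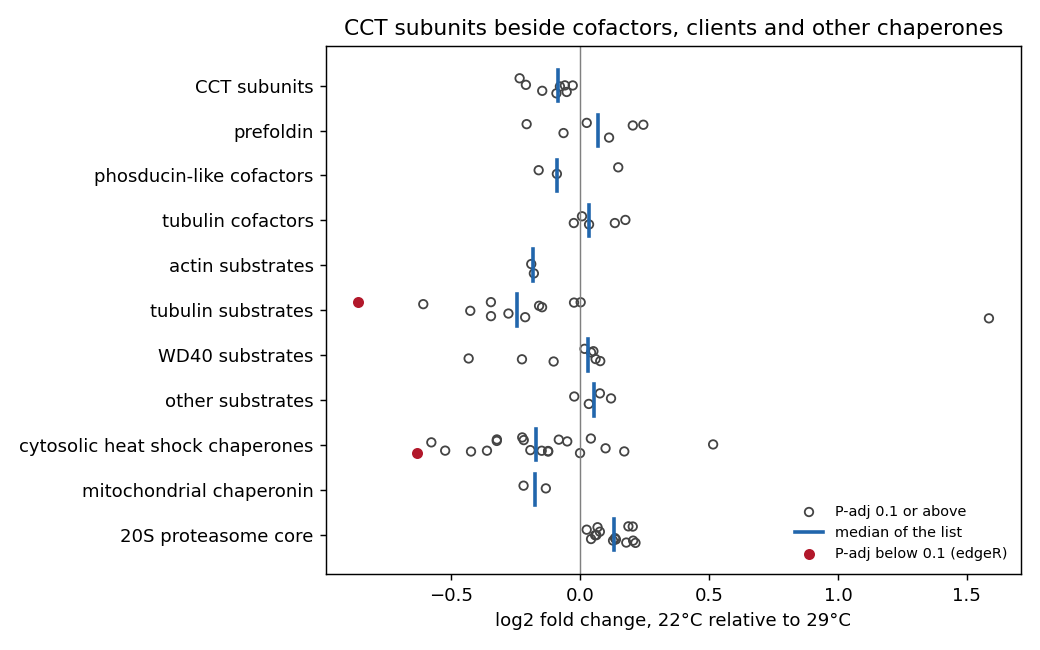
Log2 fold change, 22°C relative to 29°C, of each tested gene of the CCT subunits and of the lists of cofactors, clients and other chaperones; blue bars are list medians and filled points are genes with P-adj below 0.1 in edgeR. The 8 CCT subunits lie in a narrow range below 0 with no filled point, and the filled points are *Tuba1a* and *Hspa4l*.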

How the data were processed

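The authors aligned reads with STAR 2.7.5a, used featureCounts to count reads per gene, and deposited raw counts of 34419 genes in 13 libraries, together with regularized log2 values made with DESeq2. The submitters' processing notes name GRCm39, whereas the methods name mm10 for cultured cells. The annotation and the strand setting are not given in the sources used here. Libraries were grouped by the labelled temperature, and 34006 genes received a symbol by identifier. Promoter sequences and transcript lengths are on GRCm38, and no coordinates of the counted genes are given.

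Counts of 17779 genes that passed filterByExpr were compared with edgeR 4.0.16 in R 4.3.3, by TMM and the quasi-likelihood F test with Benjamini-Hochberg adjustment over all of these genes (P-adj). Genes with P-adj below 0.1 are called. SE was derived from F and the log2 fold change. CPM use TMM-scaled totals, and log2 CPM a prior count of 2. Lengths are those of a GENCODE M21 transcript per gene, the longest with the APPRIS principal tag or, without one, the longest in the basic set. Alternatives were DESeq2 1.42.0, other scalings and filters, the replicate number as a block, each library left out, muscle score and library total as covariates, and limma 3.58.1 on the authors' log2 values. Scaling by total count and leaving out 22°C replicates 1 and 7 were added after the data were seen. The fit was tested on simulated counts. The chi-square per gene was at least 15.5 for each of 78 pairs of libraries, which leaves no sign of a library used for 2 mice.

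The subunits, the gene lists and the motifs were chosen with earlier results of these data known. All 8 subunits are named, and of each other list the called genes and up to 3 of its most abundant tested genes, except that the abundant genes of the marker lists are given as sums. *Tuba4a*, *Psma7*, *Pfdn6*, *Ccne1*, *Ucp1*, *Elovl3*, *Chordc1*, *Hspa4*, *Stip1*, *Fkbp4* and the low or untested paralogs fall outside that rule. These were named after their values were seen. Since nothing says more of how the mice were sampled, p-values measure the spread between these libraries. Counting error is small beside that spread, with at least 1185 counts for every subunit in every library.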

Additional observations from a re-analysis of the deposited data

Results flagged for a closer look

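Of 18 groups of values examined, which are the 8 subunits and their sum at each temperature, 2 held a sample far from the others. Chance flags about 1 in 20 such groups. *Tcp1* was 202 CPM in 22°C replicate 1, and the next highest mouse at 22°C had 175 CPM. This library has the lowest TMM factor and the second highest sum of muscle markers. *Cct7* was 88.0 CPM in 29°C replicate 2, and the next lowest mouse at 29°C had 98.0 CPM. This library has the highest sum of red cell markers. The part of muscle and blood RNA in these values was not tested beyond the comparisons with the marker lists.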

How the results depend on the processing

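All 8 subunits had a lower level at 22°C in every one of the 27 fits, and their median log2 fold change was between -0.07 and -0.14. The number of subunits called was 0 in edgeR with all libraries, 2 with DESeq2 and 1 without 22°C replicates 1 and 7, and 0 in the other fits. The number of genes called among all genes was 345 and moved more, to 1676 with DESeq2, 42 with no filter on low counts, 41 with the muscle score and 4 with the total cluster as the covariate, 8 within the libraries with higher totals, 148 with scaling by total count, and 40 at P-adj below 0.05. With the replicate block it was 214, and no subunit passed (P-adj = 0.106 for *Cct3* and 0.122 for *Cct8*, edgeR). Same-numbered libraries had correlations of their deviations between 0.0508 and 0.513, and 4 of 6 correlated best with their own number, which is a hint of pairing from the data, not from the design. Since 1 pair was below 0.1 and no label ties the numbers to a batch, the block was not made the main fit. Leaving out each library gave between 32 genes, without 29°C replicate 3, and 652, without 22°C replicate 6, and 0 subunits each time. The count also moved by over 1.5 times without 22°C replicates 1, 3, 4, 5 or 7 and without 29°C replicates 1, 2, 4, 5 or 6. Apart from the construction of each alternative, the cause was not tested. Coding length in place of transcript length raised the levels per kilobase, from 102 for *Tcp1* to 40.2 for *Cct3*, and left the order of 7 subunits as it was. It was not used for *Cct6a*. Scaling by total count moved the median of all genes to -0.05. In lists, DESeq2 called 2 tubulin genes, 7 heat shock chaperones, 1 heat shock factor and 1 proteasome gene, and without 22°C replicate 6 the last 3 lists had 2, 1 and 1 called genes with edgeR. Depth did not limit the subunits, whereas most differences of their size are too small to pass in edgeR with 7 and 6 mice, and library totals are tied to temperature.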
